A study of Mus musculus with 8 samples.

Results

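The subject is a group of 4 marker genes of 2 kinds of resident immune cell in mouse skin: Mcpt2 for mast cells, and C1qb, Lyz2 and Tyrobp for macrophages and related myeloid cells. They were chosen by name with their ratios of mutant over wild type in these same arrays already known, so those ratios are described without a test. Each of the 4 was represented by a single row of the table, found through its RefSeq accession, and together they are 4 of 6587 named genes with a row. The table held log ratios of whole skin from pups aged 7 days, near naked hairless mutants against wild type mice, on 8 arrays with 2 channels. The sources used here give neither the strain nor the mutant allele. Pups of a single litter supplied 5 biological replicates, as the submitters put it, and the arrays are not tied to animals, so some arrays shared an animal. Every p-value of a mean ratio over arrays is therefore too small. A p-value of the difference between dye orientations may be too small or too large. The mutant RNA was in Cy5 on arrays 2, 4, 6 and 7 and in Cy3 on arrays 1, 3, 5 and 8.

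Ratios are taken as log2 of mutant over wild type, because the mutant is named first in the design and labelled as channel 1. That direction is likely and not stated, and with the opposite sign every direction would turn. The base of 2 is also assumed. The values were read as already turned to 1 direction for both dye orientations: over 232 replicate spots of Gapdh, spot differences correlated below 0 in 16 of 16 pairs of arrays of opposite orientation (median r = -0.45) and in 0 of 12 pairs of the same orientation (median r = 0.55). Had they not been turned, so that every array held Cy5 over Cy3, the mean ratios given here would become 0.15 for Mcpt2, -0.55 for C1qb, -0.34 for Lyz2 and -0.68 for Tyrobp. Arrays also grouped by orientation over all probes. There r was below 0 in 10 of 16 opposite pairs (median r = -0.02) and in 0 of 12 same pairs (median r = 0.49). The share of rows with a value was smallest on array 3 (41.3%) and largest on array 6 (88.3%), and the SD of an array ran from 0.57 to 1.60, with the widest on array 2. No intensities were analysed here, so neither the level of a marker nor the presence of a cell type could be read. Among defining markers of skin, Krt1 of keratinocytes had values on 7 arrays and Vim of fibroblasts on 8.

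Mast cells are tissue-resident cells that store serine proteases, histamine and heparin in granules and release them when receptors such as that for IgE are engaged. Macrophages take up dead cells and debris, make the C1q subunits that start the classical pathway of complement, and secrete lysozyme, which cleaves bacterial cell walls. In skin both cell types lie in the dermis, mast cells along vessels and nerves and macrophages also around the hair follicles. In whole tissue, fewer cells of a type and less RNA per cell cannot be told apart.

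The 4 markers did not share a direction. Mcpt2 was above 0 on every array, C1qb and Lyz2 were below 0 on every array with a value, and Tyrobp had values of both signs. Of all 3779 genes tested, 0.662% were called higher and 2.8% lower at an adjusted p under 0.05, 3.47% in all, and 19.5% had an unadjusted p under 0.05. Counts of calls in the lists below are to be set against these shares. Because the 4 genes were picked with this contrast known, no test of their own ratios is given.

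**Figure D1:**
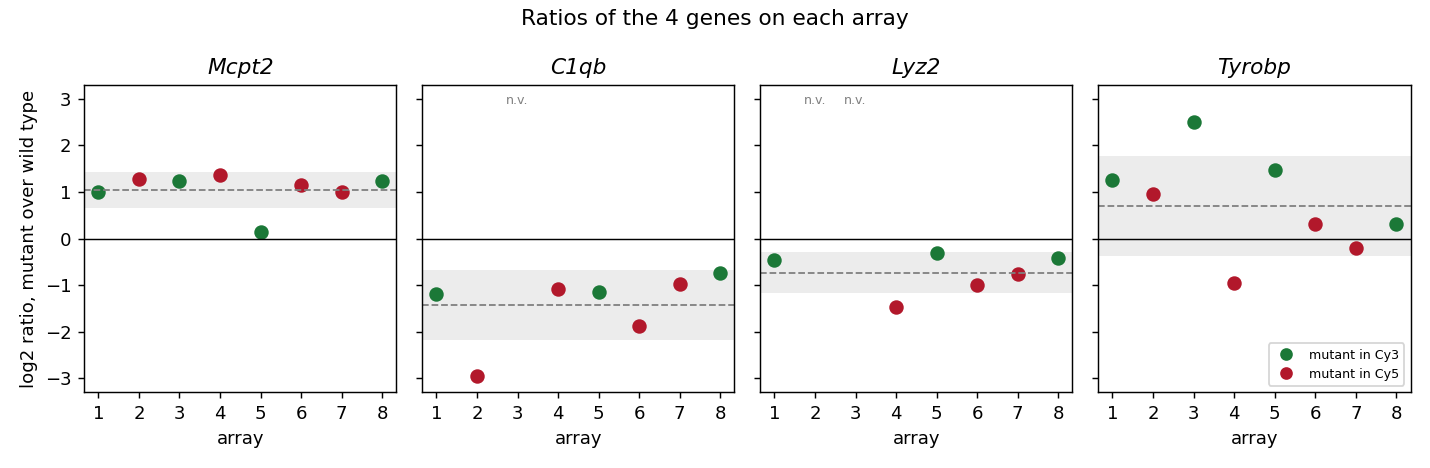
Log2 ratio of mutant over wild type (vertical axis) on arrays 1 to 8 (horizontal axis) for Mcpt2, C1qb, Lyz2 and Tyrobp, with points coloured by the dye of the mutant RNA, the mean as a dashed line, 1 SD on either side as a grey band, and n.v. where an array had no value. Mcpt2 lies between 0.99 and 1.36 on 7 arrays and at 0.15 on array 5, whereas Tyrobp runs from -0.96 to 2.51.

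Sequence upstream of the genes is shown for Lyz2 and C1qb, the 2 members with an entry in the promoter table, each beside its nearest relative on the chromosome, so that the letters of each pair can be compared. Lyz2 and Lyz1 are adjacent duplicates. The 120 bases directly before their annotated starts, on the minus strand of GRCm38.p6 as given by RefSeq (chr10:117282273-117282392 and chr10:117292869-117292988), were the same at 111 positions and different at 9, which stand in capitals.
Lyz2: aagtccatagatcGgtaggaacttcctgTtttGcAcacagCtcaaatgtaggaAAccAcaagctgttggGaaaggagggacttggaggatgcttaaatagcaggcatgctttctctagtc
Lyz1: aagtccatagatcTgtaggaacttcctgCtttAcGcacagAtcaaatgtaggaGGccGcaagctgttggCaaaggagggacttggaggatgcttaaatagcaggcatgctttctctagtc
Over the whole 250 bases before the start, compared without gaps, 60.8% of positions were the same. Both sequences hold ACTTCC, the reverse complement of GGAAGT, beginning 100 bases before the start. Those letters form a core that ETS factors bind, the family of the myeloid factor PU.1.

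C1qb and C1qc are adjacent on chromosome 4 and encode subunits of the same protein. The windows shown (minus strand, GRCm38.p6, RefSeq, chr4:136886201-136886320 and chr4:136893030-136893149) were taken to include the same core, in capitals, which begins 53 bases before the start of C1qb and 195 bases before that of C1qc.
C1qb: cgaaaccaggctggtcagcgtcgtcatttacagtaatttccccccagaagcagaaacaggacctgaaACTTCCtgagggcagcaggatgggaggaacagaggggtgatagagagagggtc
C1qc: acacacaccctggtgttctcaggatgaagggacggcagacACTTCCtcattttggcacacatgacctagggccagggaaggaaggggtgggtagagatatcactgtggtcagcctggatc
The core GGAAGT, searched on both strands over 250 bases, was chosen after the sequences were read, and 19.7% of 32851 promoter entries hold it. A match is a description of letters and not a binding site.

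Mcpt2 encodes a chymase-like granule protease known from mucosal mast cells. Its log2 ratio was 0.99, 1.27, 1.24, 1.36, 0.15, 1.15, 1.00 and 1.23 on arrays 1 to 8. Of these 8 values, 7 lay within a narrow band and only array 5 came near 0. The mean was 1.05 ± 0.39 (SD, n = 8), a fitted size of 2.07-fold. The spread was small for this table: 8.5% of the genes tested had a smaller SD, and the median SD was 0.73. By rank, Mcpt2 stood between the 61.7th and the 97.4th percentile of the probes on each array and was 51st from the top among 3779 fitted ratios. Both dye orientations gave a similar size, with means of 1.19 ± 0.15 (SD, n = 4) for the mutant in Cy5 and 0.90 ± 0.52 (SD, n = 4) for Cy3. The dye part, meaning the Cy5 mean minus the Cy3 mean, is a contrast that did not choose the genes. For Mcpt2 it was 0.29 ± 0.36 (SE, limma, adjusted p = 0.595), where 1.75% of all genes had a called dye part. At an unadjusted p under 0.05 (limma), however, the dye part held 1167 of the 3779 genes, more than the 737 of the ratio.

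Among the other granule proteases, Mcpt1 was nearest to Mcpt2 and the rest lay lower in mean. Mcpt1, the neighbouring gene and also a mucosal mast cell chymase, was above 0 on 6 of 6 arrays, at 1.35, 1.28, 0.01, 0.96, 0.10 and 4.67 on arrays 3 to 8. Its fitted ratio of 1.39 ± 0.49 (SE) did not pass (limma, adjusted p = 0.163), and without 1 array the ratio ranged from 0.73 to 1.90. On the arrays with both genes, Mcpt2 minus Mcpt1 lay between -0.12 and 0.90 on 5 arrays and at -3.43 on array 8. The 2 genes therefore had close values except on arrays 7 and 8.

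Mcpt4 and Cma1 encode chymases of connective tissue mast cells, the kind that fills the dermis. Mcpt4 averaged 0.05 ± 0.33 (SD, n = 6), with 3 arrays above 0 and 3 below. Cma1 was above 0 on 6 of 7 arrays with a mean of 0.45 ± 0.74 (SD, n = 7). Neither passed (limma, adjusted p = 0.932 and 0.283). Mcpt2 exceeded Mcpt4 on 5 of 6 arrays, by a mean of 0.93 ± 0.59 (SD), and Cma1 on 5 of 7.

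Mcpt8, a protease of basophils, averaged -0.27 ± 0.77 (SD, n = 8), and Mcpt2 exceeded it on 7 of 8 arrays. Mcpt9, the neighbour on the other side, averaged -0.62 ± 0.68 (SD, n = 6) and was below Mcpt2 on 6 of 6 arrays; it had too few values for the test. Probe sequences were not analysed here, so signal shared between these related genes was not tested.

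**Figure D2:**
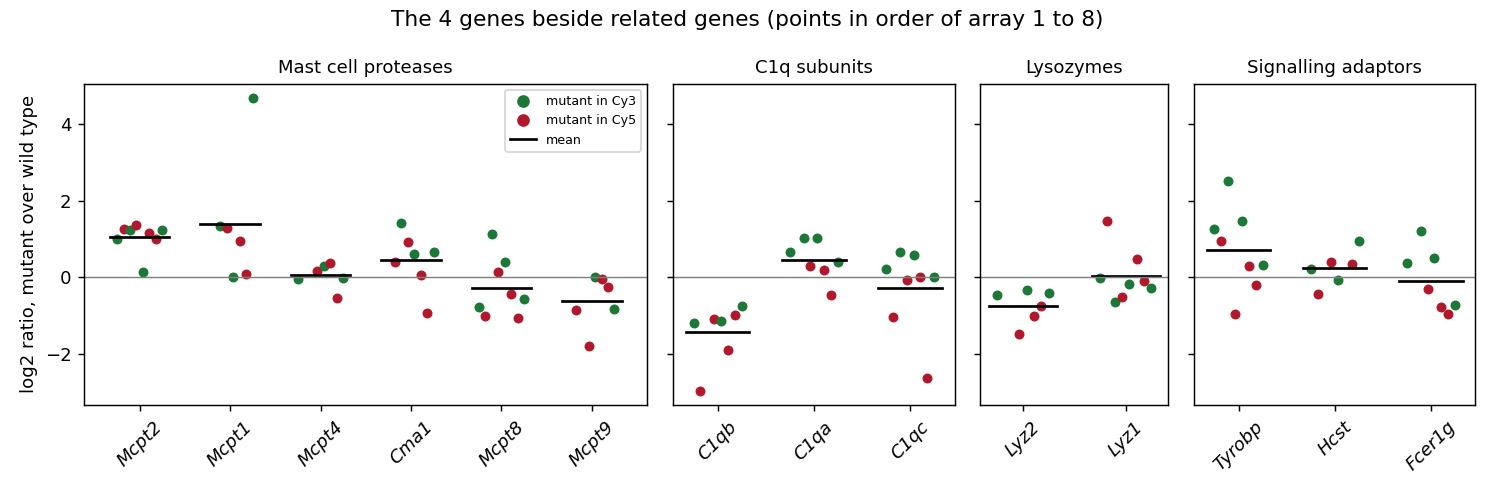
Log2 ratio of mutant over wild type (vertical axis) for the 4 genes and their relatives or partners (horizontal axis), each point an array in order from 1 to 8, coloured by the dye of the mutant RNA, with the mean as a black bar. C1qb lies below C1qa on 6 of 6 shared arrays and Lyz2 below Lyz1 on 6 of 6, while Mcpt2 and Mcpt1 are both above 0 on every array with a value.

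Genes of the mast cell lists other than Mcpt2 held no call, which at their size is near the 3.47% called over all genes. Of the 12 granule protease genes in the list, 10 had a value and 6 were tested. Without Mcpt2, 0 of 5 passed in either direction (limma, adjusted; 1 at an unadjusted p under 0.05), with a median fitted ratio of 0.20 against 0.05 for all genes tested. Cpa3, the mast cell carboxypeptidase, averaged -0.49 ± 1.20 (SD, n = 5), and Tpsb2, a tryptase, -0.04 ± 0.58 (SD, n = 4), both with too few values for the test. Among receptors and mediators, 0 of 13 genes tested passed (limma; 0 also at an unadjusted p under 0.05), with 6 above 0 and 7 below and a median of -0.01. Kit, the receptor that mast cells need to survive, averaged -0.01 ± 0.26 (SD, n = 6), the narrowest of the mast cell genes named here. Hpgds, the prostaglandin D synthase, had a fitted ratio of 0.40, Rab27b, which moves granules to the membrane, -0.30, and Ndst2, which sulfates heparin, -0.30.

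C1qb encodes the B chain of C1q, which binds antibody and dying cells. Its log2 ratio was -1.19, -2.95, -1.09, -1.14, -1.88, -0.98 and -0.74 on arrays 1, 2, 4, 5, 6, 7 and 8. All 7 were below 0, and array 2, the array of widest spread, gave the lowest. The mean was -1.42 ± 0.76 (SD, n = 7) and the fitted ratio -1.37 ± 0.25 (SE), a size of 2.59-fold. Ranked within each array, C1qb lay between the 0.6th and the 19.5th percentile of all probes, lowest on array 6, and was 45th from the bottom among genes tested. The means were -1.72 ± 0.91 (SD, n = 4) for Cy5 and -1.02 ± 0.25 (SD, n = 3) for Cy3, with a dye part of -0.70 ± 0.51 (SE, limma, adjusted p = 0.356). Without 1 array the mean ranged from -1.54 to -1.17, the latter without array 2.

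C1q is assembled from equal parts of its A, B and C chains, and the other chains did not have the ratios of C1qb. C1qa was above 0 on 6 of 7 arrays, at 0.66, 1.03, 0.29, 1.04, 0.19, -0.46 and 0.40 on arrays 1 and 3 to 8. The fitted ratio of C1qa was 0.39 ± 0.19 (SE), which did not pass (limma, adjusted p = 0.296). C1qc averaged -0.28 ± 1.07 (SD, n = 8), with values from -2.61 on array 7 to 0.65 on array 3, and did not pass either (adjusted p = 0.596). On shared arrays, C1qb minus C1qa was below 0 on 6 of 6, with a mean of -1.52 ± 0.63 (SD) and a range from -2.19 to -0.52. C1qb minus C1qc was below 0 on 6 of 7, from -1.92 to -0.74, and at 1.63 on array 7, where C1qc was lowest. The gap between C1qb and its partner chains is a description, since C1qb was picked for its low ratio. The dye parts of C1qa and C1qc were -0.78 and -1.29 (limma, adjusted p = 0.193 and 0.134).

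Lyz2 encodes lysozyme M of macrophages and neutrophils. Its log2 ratio was -0.47, -1.47, -0.32, -1.0, -0.75 and -0.41 on arrays 1, 4, 5, 6, 7 and 8. All 6 were below 0, and the mean was lower over the 3 arrays with the mutant in Cy5 than over the 3 with Cy3. The means were -1.07 ± 0.37 (SD, n = 3) and -0.40 ± 0.08 (SD, n = 3), with a dye part of -0.67 ± 0.41 (SE, limma, adjusted p = 0.278). Over both orientations the mean was -0.74 ± 0.44 (SD, n = 6), a size of 1.67-fold. Within an array, Lyz2 lay between the 6.6th and the 34.6th percentile of the probes, and it was 223rd from the bottom among genes tested.

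Lyz1, the duplicate beside it that encodes the lysozyme of Paneth cells, averaged 0.03 ± 0.67 (SD, n = 8) and did not pass (limma, adjusted p = 0.951). It was at 1.48 on array 2 and between -0.63 and 0.48 elsewhere. Lyz2 was lower than Lyz1 on 6 of 6 shared arrays, by -0.13 to -1.48, with a mean difference of -0.64 ± 0.52 (SD). Transcripts of the 2 genes are alike, and whether each probe told them apart was not tested.

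Tyrobp encodes an adaptor, also called DAP12, that passes the signal of receptors such as Trem2 through a tyrosine motif to the kinase Syk. Its log2 ratio was 1.25, 0.96, 2.51, -0.96, 1.47, 0.31, -0.20 and 0.32 on arrays 1 to 8. It was above 0 on 6 arrays and below 0 on arrays 4 and 7, both with the mutant in Cy5. The mean was 0.71 ± 1.08 (SD, n = 8), so the spread between arrays exceeded the mean, and 84.1% of genes tested had a smaller SD. With the mutant in Cy3 the mean was 1.39 ± 0.90 (SD, n = 4), against 0.03 ± 0.81 (SD, n = 4) with Cy5. That dye part of -1.36 ± 0.53 (SE) was the largest of the 4 genes and did not pass after adjustment (limma, unadjusted p = 0.0243, adjusted p = 0.113). On arrays 4 to 8 alone, which have more values than arrays 1 to 3, the mean was 0.19. The 2 orientations overlapped, since array 2 with the mutant in Cy5 (0.96) was above array 8 with Cy3 (0.32).

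Hcst, the adjacent adaptor gene also called DAP10, averaged 0.24 ± 0.47 (SD, n = 6), and Tyrobp was above it on 3 of 6 arrays. Fcer1g, the adaptor of the Fc receptors, averaged -0.09 ± 0.81 (SD, n = 7), below Tyrobp on 6 of 7 arrays. Of 24 genes in the list of receptors and kinases coupled to Tyrobp, 15 had a value and 8 were tested. Without Tyrobp, 0 of 7 passed (limma; 0 also at an unadjusted p under 0.05), a count too small to set apart from the 3.47% over all genes, 2 were above 0 and 5 below, and the median was -0.09. Klra4, a receptor of natural killer cells, had a fitted ratio of -0.56. Trem2 had values on 2 arrays, -2.70 and 0.65, and was not tested.

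**Figure D3:**
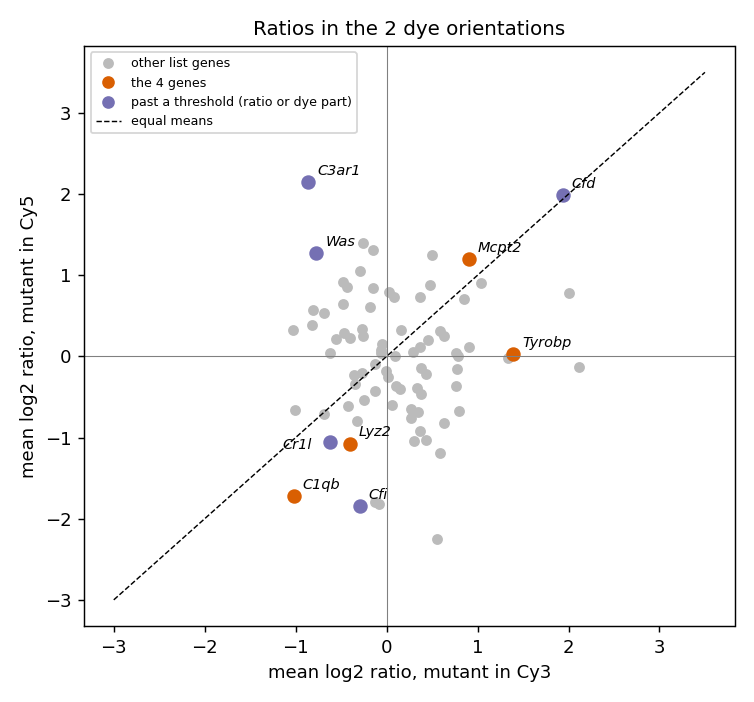
Mean log2 ratio with the mutant in Cy5 (vertical axis) against that with the mutant in Cy3 (horizontal axis) for the tested genes of the immune, mast cell and complement lists, the dashed line marking equal means. Mcpt2 lies near the line at 1.19 and 0.90, C1qb and Lyz2 lie below 0 on both axes, and Tyrobp is at 0.03 and 1.39; C3ar1 and Was have opposite signs on the axes.

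In the wider macrophage list the fitted ratios were spread around 0. Of 46 genes, 30 had a value and 14 were tested. Without C1qb, Lyz2 and Tyrobp, 0 of 11 passed in either direction (limma, adjusted; 2 at an unadjusted p under 0.05), which is near the shares over all genes, 6 were above 0 and 5 below, and the median of 0.03 was close to the 0.05 of all genes. The lowest of them was Cx3cr1, the fractalkine receptor of monocytes and macrophages, below 0 on 7 of 7 arrays with a fitted ratio of -0.70 ± 0.26 (SE, limma, adjusted p = 0.18); with quantile normalization it passed. Aif1, a macrophage actin-binding protein, was at 0.41 and Ctss, a lysosomal protease, at 0.45. Csf1r, Cd68 and Adgre1, common macrophage markers, had no named row and were not analysed here.

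Among the immune lists, complement held calls in genes other than the 4. Of 16 other genes tested, 1 was higher and 2 were lower past the threshold, beside 0.662% and 2.8% over all genes. An unadjusted p under 0.05 (limma) was seen in 4 of the 16, beside 19.5% over all genes. The gene that rose was Cfd, factor D of the alternative pathway and a product of fat cells, at 1.96 ± 0.33 (SE, limma, adjusted p = 0.0102). Cfi, the protease that inactivates C3b and C4b, fell by 1.07 on the log2 scale (SE 0.22, adjusted p = 0.0247), with 7 of 7 arrays below 0. On arrays 1 and 3, however, Cfi was close to 0, at -0.08 and -0.01. The means of Cfi were -1.84 with the mutant in Cy5 and -0.29 with Cy3, a dye part of -1.55 (limma, adjusted p = 0.068). With no dye term Cfi did not pass (limma, adjusted p = 0.18). Cr1l, a membrane regulator of C3 convertases also called Crry, fell by 0.84 (SE 0.19, adjusted p = 0.0342), with 7 of 8 arrays below 0. Cfd kept its call in 8 of 8 fits without 1 array. Cfi kept it in 4, losing it without array 1, 5, 6 or 7 (adjusted p up to 0.0801), and Cr1l in 1 of 8, the fit without array 8 (adjusted p up to 0.123). Hc, which is C5, was at 0.97 and did not pass (adjusted p = 0.212).

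**Figure D4:**
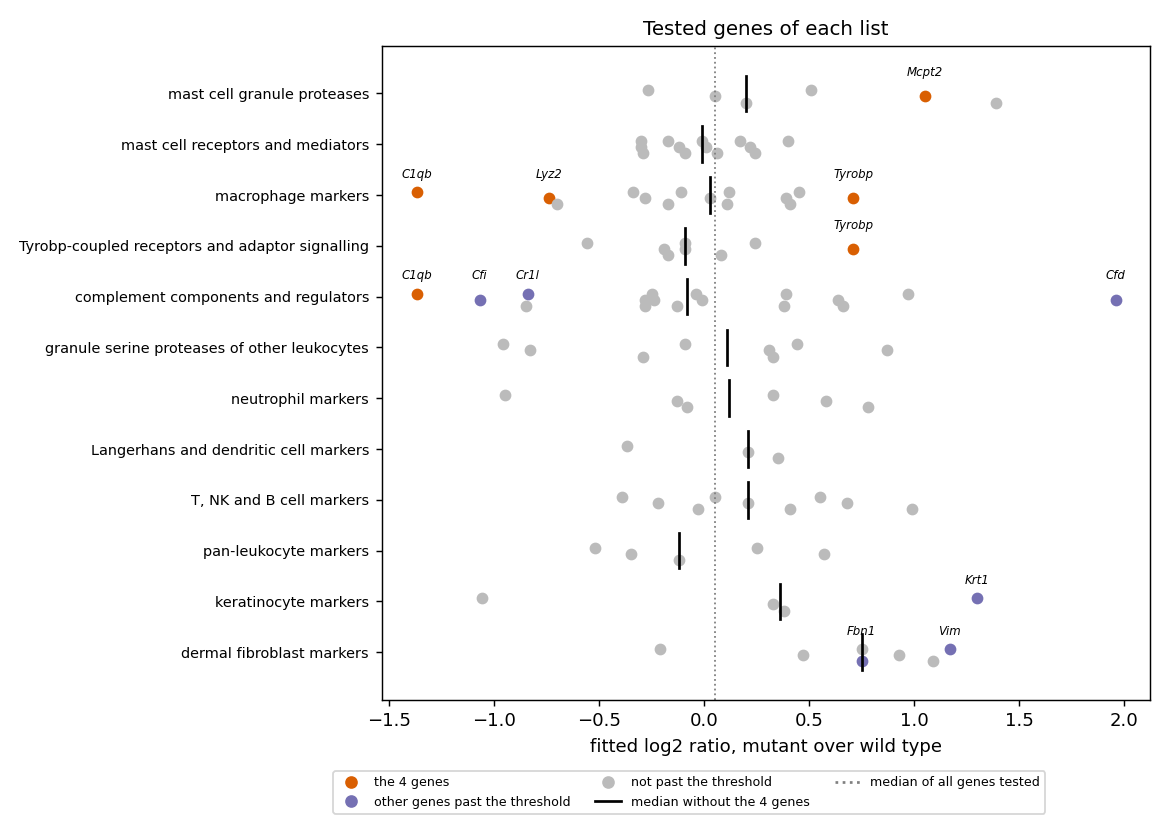
Fitted log2 ratio of mutant over wild type (horizontal axis) for every tested gene of each list (vertical axis), with the 4 genes in orange, other genes past the threshold in purple, the median without the 4 genes as a black bar and the median of all genes tested as a dotted line. The immune list medians run from -0.12 to 0.21. The 4 genes lie away from the medians of their own lists, which is no result about them, since they were chosen with their ratios known.

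Lists of other leukocytes that whole skin can hold were small. Passing genes numbered 0 of 6 for neutrophils, 0 of 3 for Langerhans and dendritic cells, 0 of 9 for T, NK and B cells, 0 of 5 for leukocytes in general and 0 of 8 for granule proteases of other leukocytes (limma, adjusted). At an unadjusted p under 0.05 the counts were 2, 0, 2, 1 and 3 in that order, beside 19.5% over all genes. Prtn3, a neutrophil protease, was at -0.96 (adjusted p = 0.0823) and Gzmd, a granzyme, at -0.83 (adjusted p = 0.051), below 0 on 8 of 8 arrays; both passed after scaling of the arrays. Gzmc, another granzyme, was at 0.87 (limma, adjusted p = 0.155) and passed with quantile normalization (adjusted p = 0.0497). Camp, the cathelicidin of neutrophils, was at 0.78 and above 0 on 6 of 6 arrays (adjusted p = 0.0771), while Mmp9, a gelatinase, was at -0.95 and Ltf, lactoferrin, at 0.58. Mmp9 was at 2.49 on array 1, and without that array its ratio was -1.59 and passed (limma, adjusted p = 0.0431). Ltf averaged 1.31 with the mutant in Cy5 and -0.14 with Cy3. Of the dendritic cell genes, Itgax was at -0.37, Cd86 at 0.35 and Flt3 at 0.21. Of the lymphocyte genes, the coreceptor gene Cd4 was at 0.99, and Cd79a and Cd22 of B cells at 0.68 and 0.55 (limma, adjusted p = 0.462, 0.216 and 0.205). Without array 8 these ratios became 0.17, 0.30 and 0.53. Ptprc, the common leukocyte antigen CD45, was at 0.57, and Rac2 and Coro1a, which act on actin in leukocytes, were at -0.52 and -0.35. Ptprc was above 0 on the 4 arrays with the mutant in Cy5 and below 0 on the 4 with Cy3 (means 1.39 and -0.25). Coro1a (0.33 and -1.03) and Flt3 (0.86 and -0.43) were also above 0 on every Cy5 array and below 0 on every Cy3 array with a value. The dye parts of Ptprc, Coro1a and Flt3 did not pass (limma, adjusted p = 0.0767, 0.0722 and 0.0675). Over all these lists, without the 4 genes, 3 of 79 genes tested were called, or 3.8%, beside 3.47% of all genes; the median ratio was -0.01, with 39 above 0 and 40 below. Among keratinocyte markers 1 of 4 passed, Krt1 at 1.30, beside 3.47% of all genes, and 2 of 4 had an unadjusted p under 0.05 (limma). Ivl, a cornified envelope protein, was at -1.06 (limma, adjusted p = 0.0733; it passed with quantile normalization), Dsc1 at 0.38 and Lor at 0.33. Among fibroblast markers 2 of 7 passed, Vim at 1.17 and Fbn1 at 0.75, again beside 3.47%. Of these 7 genes, 6 were above 0 and 5 had an unadjusted p under 0.05 (limma), beside 19.5% over all genes. Pdgfra at 1.09 and Sparc at 0.93 did not pass after adjustment (limma, adjusted p = 0.224 and 0.0812), and the list's median was 0.75. Sparc passed with quantile normalization. Vim kept its call in 8 of 8 fits without 1 array, Krt1 in 5 (lost without array 1, 5 or 6, adjusted p up to 0.103) and Fbn1 in 1, the fit without array 3 (adjusted p up to 0.135). With no dye term Vim, Krt1 and Fbn1 did not pass (limma, adjusted p = 0.0554, 0.0554 and 0.204). The means with the mutant in Cy5 and in Cy3 were 0.47 and 1.88 for Vim, and 1.39 and 0.11 for Fbn1. Whether the share of dermis in the samples had a part in the ratios of Mcpt2 or C1qb was not tested.

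In the immune lists, 2 of 79 genes were called for the dye part and not for the ratio, near the 1.75% over all genes. C3ar1, the receptor for the C3a fragment on mast cells and macrophages, averaged 2.14 with the mutant in Cy5 and -0.86 with Cy3, a dye part of 3.01 ± 0.65 (SE, limma, adjusted p = 0.0462). Was, a leukocyte regulator of actin, averaged 1.28 and -0.77 (dye part 2.05 ± 0.36, adjusted p = 0.0286). Each was above 0 on 4 of 4 Cy5 arrays and below 0 on 4 of 4 Cy3 arrays. In fits without 1 array each dye part was called in 1 of 8, the fit without array 8, with adjusted p up to 0.132 for C3ar1 and 0.0955 for Was.

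The genes whose pattern over arrays was most like that of a member were found by Pearson's r over the arrays on which the member had a value. These r are descriptions, since the points share arrays, animals and dye orientation and few points give high r among many genes. For Mcpt2, over 8 arrays and 1612 candidates, they were Bak1 (r = 0.829), Ddx3x, Nedd9, Serpinb3a and Fnta (r = 0.802). For C1qb, over 7 arrays and 2184 candidates, Fmod came first (r = 0.991), and Clnk, Cpsf2 and Src (r = 0.950) were among the nearest. For Lyz2, over 6 arrays and 2960 candidates, the first was Rab10 (r = 0.987), ahead of Evpl, Trim54, Ndufa2 and Dpf1 (r = 0.971). For Tyrobp, over 8 arrays and 1612 candidates, Pth came first (r = 0.979), then N4bp1, Hebp1, Smtn and Prl8a6 (r = 0.962). Those 5 genes had fitted ratios from -0.08 to 0.34 and dye parts from -1.27 to -1.0, near the dye part of Tyrobp. The members were not among each other's nearest genes: Tyrobp ranked 128th for Lyz2 (r = 0.842) and 1375th for C1qb (r = -0.281), C1qb ranked 813th for Lyz2 (r = 0.328), and Mcpt2 had an r below 0 with each of the 3 others.

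The nearest genes with a value on the other side of the members, beyond those already named, had values on 4 or 5 arrays and were not tested. Tex46, with 5 genes between it and C1qb, averaged -0.48 ± 1.07 (SD, n = 4). Yeats4, with 2 genes between it and Lyz2, averaged -0.13 ± 0.63 (SD, n = 5). Tbcb, with 15 genes between it and Tyrobp, was above 0 on 5 of 5 arrays, with a mean of 0.62 ± 0.38 (SD, n = 5). No neighbour of C1qb or Lyz2 was below 0 on all of its arrays.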

How the data were processed

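The authors deposited log2 ratios of 2-colour arrays (log base and direction assumed here). Hybridization followed TIGR protocols, per the labels; how images were read, how values were normalized and why some are missing is not given in the sources used here. Control spots (1235) were left out, the 232 Gapdh spots were averaged, and of 21997 rows with a probe, 6749 were named by RefSeq accession without version and 77 by synonym (GRCm38.p6, names and gene order only). Genes with values on at least 3 of 4 arrays of each orientation, 3779 in all, entered a limma 3.58.1 model holding the mean ratio plus a term for dye orientation (R 4.3.3), two-sided, with Benjamini-Hochberg adjustment over all genes at 0.05. The fit was tested on simulated data. Members and lists were chosen with earlier results of these data known. The text names the 4 genes, called list genes, the 3 largest ratios per list, the 5 nearest patterns per member (1 is not reported here), chromosomal neighbours and paralogs; genes named outside this rule were chosen after their values were seen. Alternatives were scaling, direction, filter, dye term, probes and each array left out.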

Additional observations from a re-analysis of the deposited data

Results flagged for a closer look

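Over 34 sets of values (the 4 genes, their relatives and the named immune genes), 7 held an outlying array (Dixon's criterion). About 1 set in 20 would do so by chance, or 1.70 here, if sets were independent and chosen without regard to their values. Neither holds: the sets share arrays, and many genes were named for a large ratio, which 1 extreme array can give. The 7 is therefore not to be read as an excess. Arrays 2, 3 and 8 had the widest spread of all values (SD 1.60, 1.32 and 1.10). Among the 4 genes this was Mcpt2 alone, at 0.15 on array 5 against 0.99 to 1.36 elsewhere. Mcpt1 stood at 4.67 on array 8, where the other arrays reached 1.35, and Cd4 at 7.04 on the same array, where the others reached 0.55. On array 3 Hpgds was at 1.98 and Rab27b at 3.04, above highest values of 0.58 and 0.42 elsewhere. The lowest value of Klra4 was -3.42 on array 2, the next lowest being -0.77, and Mmp9 was at 2.49 on array 1, with all other arrays below 0.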

How the results depend on the processing

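Centring, scaling, quantile normalization, the median in place of the mean, the mean of the orientation means and arrays 4 to 8 alone left the mean ratio of each of the 4 genes on its side of 0 and within 1 SD. Read as Cy5 over Cy3, the means became 0.15 for Mcpt2, -0.55 for C1qb, -0.34 for Lyz2 and -0.68 for Tyrobp, the last reversed. The fitted ratios of Krt1 (-0.40) and Vim (-0.71) were reversed too. Without 1 array the means ranged from 1.00 to 1.18 (Mcpt2), -1.54 to -1.17 (C1qb), -0.82 to -0.59 (Lyz2) and 0.45 to 0.95 (Tyrobp).

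Of 131 genes called for the ratio, the count became 206 after scaling, 350 with quantile normalization, 66 read as Cy5 over Cy3, 81 with values on all 8 arrays, 64 with no dye term, 504 with probes, 0 on arrays 4 to 8 alone (chosen after seeing the data; limma, 741 at an unadjusted p under 0.05) and 53 to 130 without 1 array (53 without array 1, 85 without 2, 82 without 4, 72 without 5, 60 without 6). The share of lower calls was 80.9%, against 63.4% with quantile normalization, 67.9% with values on all 8 arrays, 92.2% with no dye term and 6.1% read as Cy5 over Cy3. Reading the values as Cy5 over Cy3 exchanges the tests of the ratio and the dye part by construction, so their counts of 131 and 66 trade places. Of 66 genes called for the dye part, the count became 27 after centring, 447 after scaling, 657 with quantile normalization, 131 read as Cy5 over Cy3, 0 with values on 2 arrays of each orientation (1327 at an unadjusted p under 0.05 in limma), 345 with values on all 8 arrays and 0 to 761 without 1 array, the highest without array 8 and 0 without array 1, 3, 4, 6 or 7 (820 to 1078 at an unadjusted p under 0.05). The 3 list genes called became 5 after scaling, 7 with quantile normalization, 1 with no dye term, 0 of 99 on arrays 4 to 8 alone (16 at an unadjusted p under 0.05) and 1 to 4 without 1 array, with 1 left, Cfd, without array 5, 6 or 7. The causes were not tested. No paired analysis was possible because all arrays form 1 group and each already pairs both RNAs. Signal over background was not analysed here, and the number of arrays limits the precision.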

Other observations

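Some list genes had values on too few arrays of 1 orientation for the test. Of 61 such genes, 47 had values on at least 4 arrays, and 9 of these were on 1 side of 0 on every array with a value, 3 above and 6 below. They were chosen after their values were seen and have no test. The share of such genes over the whole table was not counted, so 9 of 47 has no background to be read against. All but Laptm5 had more values with the mutant in Cy5 than in Cy3. Among macrophage genes, the mannose receptor gene Mrc1 averaged 1.06 ± 0.73 (SD, n = 6), Laptm5, a lysosomal membrane protein of leukocytes, 1.19 ± 0.47 (SD, n = 4), and Cybb, a subunit of the phagocyte oxidase, 0.63 ± 0.27 (SD, n = 5). Clec4n, the receptor dectin-2, averaged -0.75 ± 0.59 (SD, n = 5). Of the other lists, Ngp, a granule protein of neutrophils, averaged -0.90 ± 0.30 (SD, n = 5), Irf8, a factor of dendritic cell development, -1.0 ± 0.99 (SD, n = 6), Cd83, a marker of mature dendritic cells, -1.88 ± 1.86 (SD, n = 6), Cd247, a chain of the T cell receptor complex, -1.06 ± 0.60 (SD, n = 6), and Zap70, a kinase of T cells, -0.42 ± 0.35 (SD, n = 4). The macrophage genes in this group therefore lay on both sides of 0, as C1qb, Lyz2 and Tyrobp did.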
